A study of Homo sapiens with 12 samples.

Results

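The genes described here are the G protein-coupled receptors other than chemokine receptors among the genes that lipopolysaccharide (LPS) changed in human THP-1 macrophages with or without an edit of NFKB1. They were chosen by the start of the gene symbol, with 23 prefixes such as ADORA, P2RY, LPAR, HRH and GPR searched. The search found 47 of the 3281 genes in the 2 deposited tables. Of the 47, 45 were counted as receptors by their symbols. ADRBK2, whose present symbol is GRK3, encodes a kinase that phosphorylates activated receptors, and ADORA2A-AS1 is an antisense RNA of the adenosine receptor gene ADORA2A. Both stay in the counts because the rule takes them. GPR98 is the older symbol of the adhesion receptor ADGRV1, and no listed symbol begins with ADGR. By ligand, 6 of the 47 carry purine and pyrimidine receptor symbols, 12 lipid and metabolite, 3 peptide and complement, and 8 amine receptor symbols, and 18 are named GPR with a number.

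THP-1 is a human monocytic leukaemia line that phorbol ester (PMA) turns into macrophage-like cells. There were 4 groups of 3 libraries each: S80A cells 3 hr after LPS at 10 ng/ml, S80A cells at 0 hr, wild-type cells 3 hr after the same LPS, and wild-type cells at 0 hr. S80A cells carry a serine-to-alanine change of NFKB1, the gene of the NF-κB precursor p105 and its product p50. All 4 groups had PMA at 25 ng/ml for 72 hr and then 4 days of rest. Poly(A) RNA was sequenced in stranded libraries. The labels do not say how the S80A line was made, whether it is 1 clone, or whether replicates came from separate cultures, so p-values measure the spread between these libraries, which may be technical. NFKB1 itself had 23198 ± 4621 scaled reads in S80A cells at 3 hr, 917 ± 151 in S80A cells at 0 hr, 23290.2 ± 713 in wild-type cells at 3 hr and 875 ± 100.4 in wild-type cells at 0 hr (SD, n = 3 each). A point edit leaves the read count unmarked, so this gives no check of the labels.

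G protein-coupled receptors are membrane proteins that bind a ligand outside the cell and switch on heterotrimeric G proteins inside it. Coupling to Gs raises cyclic AMP, coupling to Gi lowers it, and coupling to Gq releases calcium through phospholipase C. Receptor kinases and arrestins then end the signal, and regulators of G protein signalling (RGS proteins) speed the return of G proteins to rest. Macrophages use these receptors to sense nucleotides released by damaged cells, lipid mediators, complement fragments, histamine and metabolites. LPS, a component of the outer membrane of Gram-negative bacteria, acts through TLR4 and NF-κB, whose p50 subunit binds κB sites in DNA.

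Each value is in scaled reads, the deposited number of reads on a gene divided by a size factor for the library. The libraries held 1924562 to 5789918 reads on the listed genes, of which 11627 to 18161 fell on the 47 genes. The tables hold only genes that the authors called with LPS (adjusted p under 0.01 and a log2 change beyond 1 in either direction), and genes outside them were not analysed here. Among the S80A libraries, replicate 1 stood closest to wild type at both times. On the second principal component of the listed genes, which held 17.6% of the variance, its scores were -16.9 at 3 hr and -16.7 at 0 hr. The other S80A libraries scored -46.7 to -32.7 on that component, and wild-type libraries scored 25.0 to 40.4. Of 14 monocyte and macrophage markers 3 were listed, CD14, FCGR3A and CD163, and of 27 markers of other blood, endothelial and epithelial cells 1 was listed, CD79B. CD14 had 1479 ± 396 scaled reads in S80A cells at 3 hr, 3995 ± 2024 in S80A cells at 0 hr, 875 ± 194 in wild-type cells at 3 hr and 2489 ± 180.4 in wild-type cells at 0 hr (SD, n = 3 each). CD163 had 785 ± 192 scaled reads in S80A cells at 3 hr, 1015 ± 136 in S80A cells at 0 hr, 1128 ± 254 in wild-type cells at 3 hr and 2297 ± 836 in wild-type cells at 0 hr (SD, n = 3 each), and was lower in S80A cells at 0 hr (log2 difference -1.11 ± 0.31 SE, adjusted p = 0.0452). CD163 was listed in the wild-type table alone, through wild-type libraries that this comparison uses again, so its p-value is no independent support. That call was not checked under other settings. The part of these marker differences in the results was not tested. In bulk RNA, fewer cells of a type and less RNA per cell cannot be told apart.

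Promoters of 35 of the 47 genes, 51 promoters in all, were found in the RefSeq table of GRCh38.p14. The 250 bases before each start were searched on both strands for the κB motif, for the AP-1 motif TGANTCA and for the cyclic AMP response element TGACGTCA. These motifs bind NF-κB, the stress-responsive factor AP-1 and CREB. The AP-1 motif lay in 4 of the 51 promoters, against 6.57% of all 35116 promoters in the table. κB lay in 3 of the 51, against 9.96% of all. The cyclic AMP response element lay in 0 of the 51, against 1.65% of all. Each match belongs to a gene called between S80A and wild-type cells below at either time or both, as most of the 47 were, 20 being called at neither time. Of these motif genes PTAFR was lower and the others were higher in S80A cells. The matches are shown so that they can be read beside the values, and a link of motif and genotype was not tested. Capitals mark the motif, and the strand is that of the gene. The κB motif is GGGRNNYYCC, where R is A or G, Y is C or T and N is any base. In P2RY12 and C5AR2 the κB match is on the strand opposite to the one printed.
PTAFR, AP-1, chr1:28193890-28193918, minus strand: gtagagcagagTGAGTCAcacacctgtgc
HRH1, AP-1, chr3:11137156-11137184, plus strand: tttagtcagacTGAGTCActtcaaggagg
C5AR2, AP-1, chr19:47332065-47332093, plus strand: tttgggttctgTGAGTCAcgggaagaaga
GPR137B, AP-1, chr1:236142493-236142521, plus strand: ggccgtcccagTGAATCAtgtggtgccgg
P2RY12, κB, chr3:151384937-151384966, minus strand: ttaaccagaaGGAAGTTCCCctatgaaaca
S1PR1, κB, chr1:101236796-101236825, plus strand: gttcagatccGGGGGCCCCCagctgacaga
C5AR2, κB, chr19:47336919-47336948, plus strand, at another start: atgggggaggGGAGTGCCCCaacttcctct
These are matches of letters, not binding sites. With LPS, the 3 κB-motif genes P2RY12, S1PR1 and C5AR2 fell in the wild-type table, and 3 of the 4 AP-1-motif genes, PTAFR, HRH1 and GPR137B, rose in it. C5AR2 carries both motifs and is the AP-1-motif gene that fell. Of the 47 genes, 20 rose and 19 fell in that table, and direction by motif was not tested.

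LPS moved the receptor genes in both directions. Of the 47 genes, 33 were in the S80A table, where 18 rose and 15 fell, and 39 were in the wild-type table, where 20 rose and 19 fell. Over all 3281 genes 46.2% rose and 30.2% fell in the S80A table, and 43.9% rose and 27.2% fell in the wild-type table. Of the genes in both tables, 15 rose, 10 fell and 0 went opposite ways, beside 31.9% of all genes that rose in both and 15.5% that fell in both. A further 8 stood in the S80A table alone and 14 in the wild-type table alone, beside 28.8% and 23.6% of all genes. The genes were found through this LPS contrast, so these counts are a description and were not tested. The members nearest the limit of the tables were GPR161 at a log2 change of 1.03 in the S80A table and ADRB1 at 1.08 in the wild-type table, both from the authors' deposited tables. Across the 12 libraries 41 genes averaged at least 10 scaled reads, and the low values of the other 6 carry a large counting error.

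**Figure D1:**
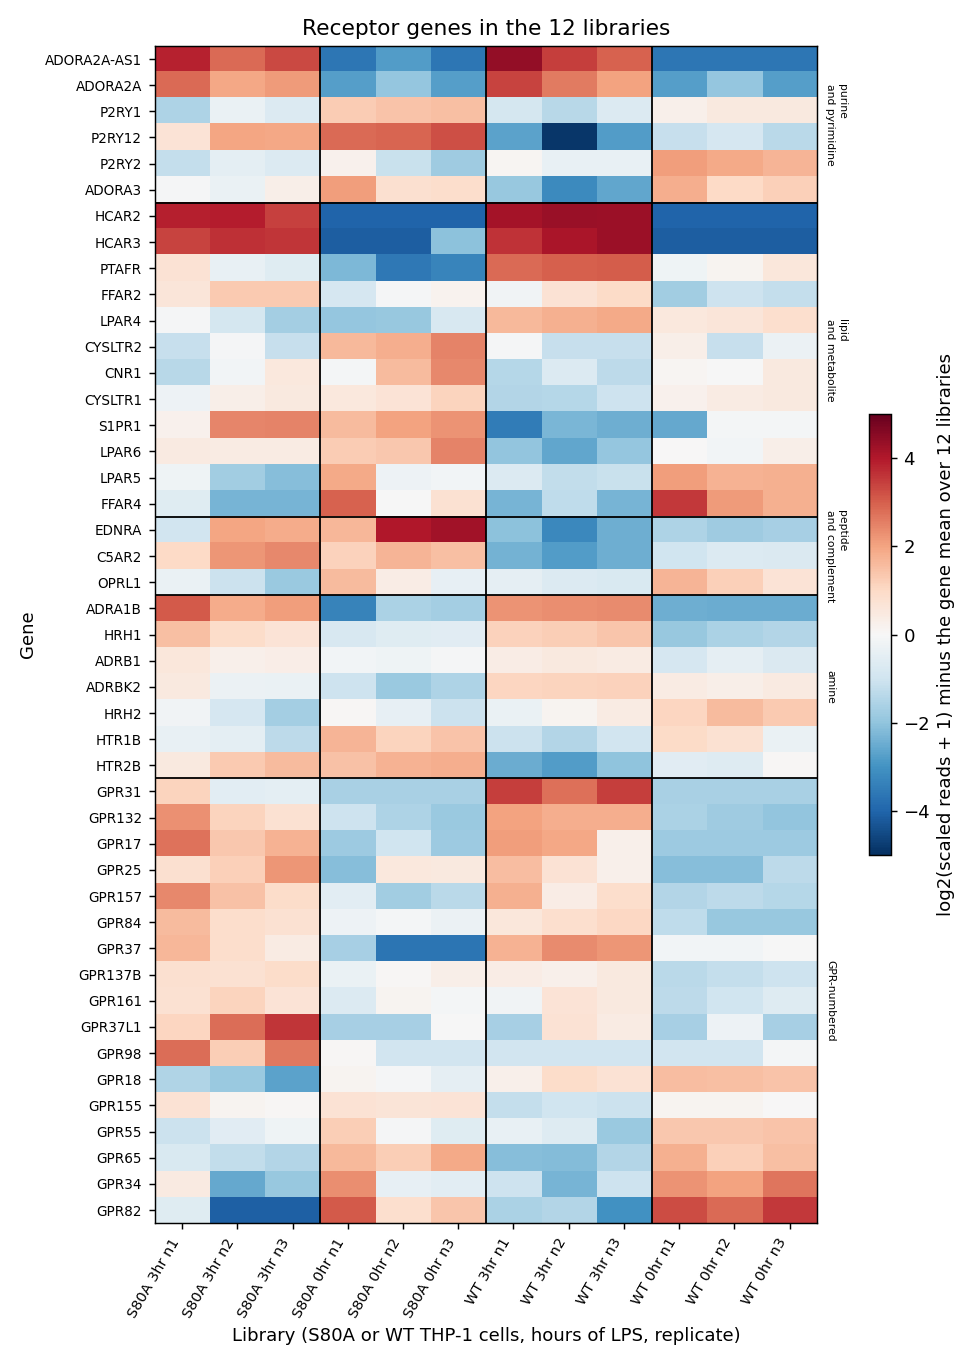
Level of 45 of the 47 genes (rows, by ligand class) in the 12 libraries (columns, S80A left of wild type, 3 hr left of 0 hr), shown as log2 of scaled reads plus 1 minus the mean of the gene over the libraries. HCAR2, HCAR3 and ADORA2A-AS1 are high in all 6 libraries at 3 hr, and P2RY12 and C5AR2 are above their means in all 6 S80A libraries.

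The genotypes differed in many of these receptors before LPS was added. At 0 hr, 22 of the 47 differed between S80A and wild-type cells (limma, Benjamini-Hochberg adjusted p under 0.05), 15 higher and 7 lower in S80A cells, beside 20.3% of all genes higher, 10.7% lower and 31% in either direction. At 3 hr, 18 of the 47 differed, 12 higher and 6 lower, beside 30.1% of all genes higher, 17.7% lower and 47.9% in either direction. Of these calls, 14 at 0 hr and 12 at 3 hr were of genes listed in 1 table only. Those genes entered through a call in 1 genotype, from libraries that these comparisons use again. Their p-values are therefore not independent of that selection. The median size of the log2 difference was 1.12 over the 47 genes and 0.564 over all genes at 0 hr. At 3 hr it was 0.589 over the 47 genes and 0.805 over all genes. Both times called the same direction for 13 genes, 8 of them higher and 5 lower in S80A cells. Those higher at both times included C5AR2, EDNRA, GPR155, HTR2B, LPAR6, P2RY12 and S1PR1, and ADRBK2, GPR18, GPR37, LPAR4 and PTAFR were lower at both. Another 9 were called at 0 hr alone, 5 at 3 hr alone and 20 at neither. The same split was not counted over all listed genes, so it is not read as particular to these genes. The plot of the difference at 3 hr against that at 0 hr marks these sets.

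The choice of scaling and of libraries bears on these counts. The median log2 difference of all listed genes was 0.19 at either time, and with TMM scaling it was 0.013 at 0 hr and -0.0076 at 3 hr. With TMM the split of the 47 genes was 12 higher and 7 lower at 0 hr, and 12 higher and 10 lower at 3 hr, where HCAR2, HCAR3, HRH2 and P2RY2 were added as lower. TMM called 973 of all listed genes at 0 hr and 1606 at 3 hr, against 1016 and 1570 in the main fits. Same-numbered libraries deviated together at 0 hr, and with the replicate number as a block 19 of the 47 were called there as 4 lost their call, among them ADRB1 and GPR155, and FFAR2 gained one as higher. Without wild-type replicate 3 at 0 hr 14 were called, and without S80A replicate 1 at 0 hr 27 were called. The count over all listed genes moved as well, to 519 without that wild-type replicate and 1207 without that S80A replicate. With the replicate block at 0 hr it was 1061.

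**Figure D2:**
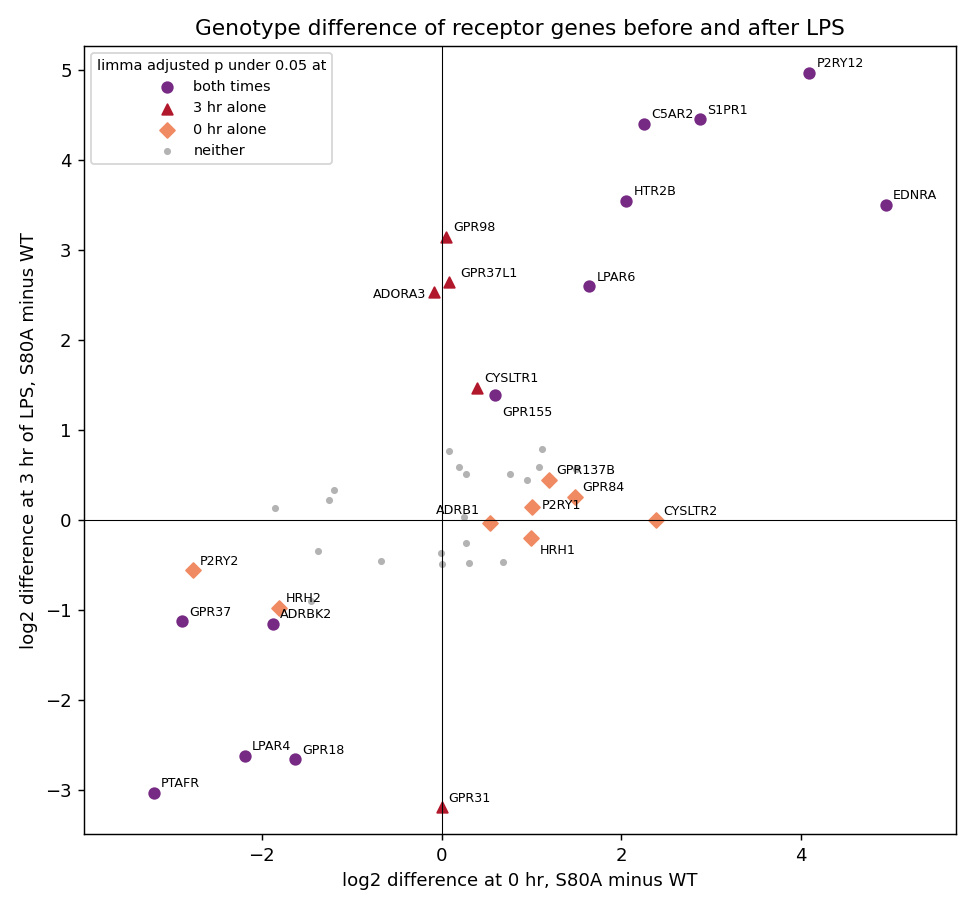
Difference between S80A and wild-type cells in log2 of scaled reads plus 1 at 3 hr (vertical axis) against 0 hr (horizontal axis) for 45 of the 47 genes, with 1 point a gene and marker shape giving the times called by limma. P2RY12, EDNRA, S1PR1 and C5AR2 lie far up and right, PTAFR, LPAR4 and GPR18 lie down and left, and ADORA3, GPR37L1 and GPR98 are near 0 on the horizontal axis.

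Among the receptors for purines and pyrimidines, ADORA2A rose steeply with LPS in both genotypes, ADORA3 and the ADP receptors fell, and the genotypes differed most in P2RY12. ADORA2A encodes the Gs-coupled adenosine receptor that restrains macrophage activation (chr22:24417879-24442360, plus strand, GRCh38). ADORA2A had 48.2, 25.3 and 28.8 scaled reads at 3 hr and 0, 0.776 and 0 at 0 hr in S80A cells. For ADORA2A, wild-type cells gave 70.5, 40.5 and 26.8 at 3 hr and 0, 0.804 and 0 at 0 hr. At 0 hr replicate 2 of each genotype had 1 read and the other libraries had none, and every 3 hr library was above every 0 hr library. In reads summed over a group and corrected for the size factors, ADORA2A was 111-fold higher (19.5 to 4446) at 3 hr than at 0 hr in S80A cells and 164-fold higher (28.9 to 6533) in wild-type cells, where the 95% intervals cover counting error only. ADORA2A-AS1 had 176, 86.3 and 119 scaled reads at 3 hr and 0, 0.776 and 0 at 0 hr in S80A cells. For ADORA2A-AS1, wild-type cells gave 251, 131 and 93.1 at 3 hr and 0, 0 and 0 at 0 hr. The antisense RNA thus had the pattern of its partner. It was 414-fold higher (73.8 to 16401) at 3 hr in S80A cells and at least 188-fold higher in wild-type cells, a bound that sets the empty 0 hr group at a floor of 3 reads. ADORA2A-AS1 lies on the other strand (chr22:24429206-24495074, minus strand) and overlaps both ADORA2A and UPB1. Libraries were stranded, but the strand setting of the counting is not given in the sources used here. Reads of these overlapping genes may therefore be shared. Of the genes described here, 24 overlap a gene on the other strand and 5 overlap one on the same strand. ADORA3 overlaps TMIGD3 on the same strand. On the other strand P2RY12 overlaps MED12L, LPAR6 overlaps RB1, HTR2B overlaps PSMD1 and GPR18 overlaps UBAC2. The counts of such genes carry the same limit, and sharing of reads was not tested. The log2 changes in the authors' deposited tables were 4.82 in S80A cells and 5.33 in wild-type cells for ADORA2A and 6.46 in S80A cells and 7.18 in wild-type cells for the antisense RNA. Neither gene was called between the genotypes at either time.

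ADORA3 encodes a Gi-coupled adenosine receptor (chr1:111499429-111503760, minus strand). ADORA3 had 209, 174 and 266 scaled reads at 3 hr and 930.2, 375 and 399 at 0 hr in S80A cells. For ADORA3, wild-type cells gave 57.6, 22.8 and 35.3 at 3 hr and 775, 430.3 and 496 at 0 hr. The S80A libraries stayed well above the wild-type libraries at 3 hr, while the genotypes overlapped at 0 hr. At 3 hr ADORA3 was higher in S80A cells (log2 difference 2.53 ± 0.36 SE, adjusted p = 0.00133), and at 0 hr it was not called (log2 difference -0.08 ± 0.43 SE, adjusted p = 0.903). ADORA3 was listed at -1.34 in S80A cells and -3.69 in wild-type cells in the authors' deposited tables.

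P2RY12 encodes the Gi-coupled ADP receptor of platelets and microglia, the target of clopidogrel (chr3:151337380-151384812, minus strand). P2RY12 had 46.0, 113 and 109 scaled reads at 3 hr and 206, 218 and 267 at 0 hr in S80A cells. For P2RY12, wild-type cells gave 3.52, 0 and 3.21 at 3 hr and 12.1, 15.3 and 10.5 at 0 hr. All S80A libraries were above all wild-type libraries at both times. P2RY12 was higher in S80A cells at 3 hr (log2 difference 4.97 ± 0.66 SE, adjusted p = 0.000996) and at 0 hr (log2 difference 4.09 ± 0.22 SE, adjusted p = 0.00173). The ratio of means was 39.8 at 3 hr and 18.2 at 0 hr. At 3 hr the wild-type libraries held 6 P2RY12 reads in all, so the ratio there carries a large counting error. P2RY12 fell with LPS, by the authors' deposited tables, at -1.33 in S80A cells and -1.97 in wild-type cells. P2RY1 encodes the Gq-coupled ADP receptor. P2RY1 had 16.8, 40.3 and 31.2 scaled reads at 3 hr and 123, 137 and 146 at 0 hr in S80A cells. For P2RY1, wild-type cells gave 27.0, 18.7 and 31.0 at 3 hr and 59.8, 70.0 and 71.0 at 0 hr. At 0 hr the S80A libraries were all higher, and at 3 hr the genotypes overlapped. P2RY1 was called at 0 hr (log2 difference 1.01 ± 0.16 SE, adjusted p = 0.00940) and not at 3 hr (log2 difference 0.14 ± 0.39 SE, adjusted p = 0.788), and the authors' deposited tables list it at -2.15 in S80A cells and -1.35 in wild-type cells.

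P2RY2 encodes the Gq-coupled receptor for ATP and UTP. P2RY2 had 290.4, 469 and 415 scaled reads at 3 hr and 776, 307 and 194 at 0 hr in S80A cells. For P2RY2, wild-type cells gave 707, 506 and 505 at 3 hr and 2819, 2441 and 2142 at 0 hr. S80A libraries were below all wild-type libraries at both times, and at 0 hr S80A replicate 1 was the highest of the S80A libraries. P2RY2 was lower in S80A cells at 0 hr (log2 difference -2.77 ± 0.51 SE, adjusted p = 0.0145) and missed the threshold at 3 hr (log2 difference -0.56 ± 0.25 SE, adjusted p = 0.102). The 0 hr call was lost without S80A replicate 2, wild-type replicate 1 or wild-type replicate 2, with adjusted p from 9.2e-08 to 0.0588 over all alternatives. It was listed in the wild-type table alone, at -2.02 by the authors' deposited table.

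The lipid and metabolite receptors held the largest rises with LPS, those of HCAR2 and HCAR3, and some of the largest differences between the genotypes in either direction, S1PR1 and PTAFR. HCAR2 encodes a Gi-coupled receptor for nicotinic acid and the ketone body hydroxybutyrate (chr12:122701293-122703343, minus strand), and HCAR3 its close human copy for hydroxylated fatty acids (chr12:122714756-122716892, minus strand). HCAR2 had 235, 245 and 171 scaled reads at 3 hr and 0, 0 and 0 at 0 hr in S80A cells. For HCAR2, wild-type cells gave 287, 314 and 307 at 3 hr and 0, 0 and 0 at 0 hr. No read fell on HCAR2 in any 0 hr library. HCAR3 had 177, 215 and 201 scaled reads at 3 hr and 0, 0 and 3.15 at 0 hr in S80A cells. For HCAR3, wild-type cells gave 211, 292 and 332 at 3 hr and 0, 0 and 0 at 0 hr. The 0 hr libraries had HCAR3 reads in S80A replicate 3 alone. HCAR2 was at least 236-fold higher at 3 hr in S80A cells and at least 367-fold higher in wild-type cells, against the floor of 3 reads. HCAR3 was 214-fold higher (72.8 to 1041) in S80A cells and at least 340.1-fold higher in wild-type cells. HCAR2 was listed at 7.66 in S80A cells and 8.25 in wild-type cells and HCAR3 at 6.69 in S80A cells and 8.07 in wild-type cells, in log2 by the authors' deposited tables. At 3 hr the S80A libraries were all below the wild-type libraries for HCAR2 and overlapped them for HCAR3. Neither passed at 3 hr (HCAR2 log2 difference -0.49 ± 0.21 SE, adjusted p = 0.0919, HCAR3 log2 difference -0.47 ± 0.23 SE, adjusted p = 0.133), and both passed as lower with TMM scaling. The transcripts share 450 of 1977 windows of 75 bases in HCAR2 and 450 of 2063 in HCAR3, so reads may be split between the copies and their separate levels are uncertain.

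PTAFR encodes the receptor for platelet-activating factor, a phospholipid mediator of inflammation. PTAFR had 186, 86.3 and 73.1 scaled reads at 3 hr and 22.9, 8.53 and 10.5 at 0 hr in S80A cells. For PTAFR, wild-type cells gave 807, 882 and 927 at 3 hr and 95.3, 125 and 166 at 0 hr. The S80A libraries were far below the wild-type libraries at both times, with S80A replicate 1 the highest of them at each. PTAFR was lower in S80A cells at 3 hr (log2 difference -3.03 ± 0.35 SE, adjusted p = 0.000644) and at 0 hr (log2 difference -3.20 ± 0.43 SE, adjusted p = 0.00622), and it rose with LPS in both genotypes, at 2.88 in S80A cells and 2.67 in wild-type cells in the authors' deposited tables. S1PR1 encodes the Gi-coupled receptor for sphingosine 1-phosphate, which guides lymphocytes out of lymph nodes. S1PR1 had 104, 498 and 514 scaled reads at 3 hr and 274, 370 and 439 at 0 hr in S80A cells. For S1PR1, wild-type cells gave 7.05, 17.6 and 16.1 at 3 hr and 14.7, 83.6 and 85.5 at 0 hr. All S80A libraries were above all wild-type libraries at both times, and replicate 1 was the lowest in each group. S1PR1 was higher in S80A cells at 3 hr (log2 difference 4.46 ± 0.65 SE, adjusted p = 0.00141) and at 0 hr (log2 difference 2.87 ± 0.72 SE, adjusted p = 0.0337). At 0 hr the call was lost without any of the 3 S80A replicates or wild-type replicate 2 or 3 (adjusted p from 6.2e-06 to 0.103 over all alternatives). By the authors' deposited table, the gene was listed in wild-type cells alone, at -1.88.

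The receptors for lysophosphatidic acid went different ways. LPAR6 and LPAR4 differed between the genotypes in opposite directions. LPAR6 had 987, 956 and 969 scaled reads at 3 hr and 1752, 1827 and 4095 at 0 hr in S80A cells. For LPAR6, wild-type cells gave 182, 118 and 187 at 3 hr and 742, 653 and 882 at 0 hr. LPAR6 was higher in every S80A library at both times (log2 difference 2.60 ± 0.23 SE, adjusted p = 0.000293 at 3 hr and log2 difference 1.65 ± 0.36 SE, adjusted p = 0.0234 at 0 hr). The 0 hr call was lost without S80A replicate 2 or any wild-type replicate (adjusted p from 4.7e-06 to 0.0809 over all alternatives). LPAR4 had 39.2, 21.9 and 12.0 scaled reads at 3 hr and 9.96, 10.1 and 23.1 at 0 hr in S80A cells. For LPAR4, wild-type cells gave 126, 140.1 and 155 at 3 hr and 58.9, 61.9 and 72.6 at 0 hr. S80A libraries were below all wild-type libraries at both times, and LPAR4 was called lower at 3 hr (log2 difference -2.62 ± 0.41 SE, adjusted p = 0.00186) and at 0 hr (log2 difference -2.19 ± 0.37 SE, adjusted p = 0.0107). LPAR6 fell with LPS, at -1.36 in S80A cells and -2.16 in wild-type cells, and LPAR4 was listed as rising, at 1.09 in wild-type cells, by the authors' deposited tables. LPAR5 fell, at -1.81 in S80A cells and -2.66 in wild-type cells in the authors' deposited tables, and was not called between the genotypes.

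The remaining lipid and metabolite receptors are those for fatty acids, leukotrienes and cannabinoids. FFAR4 encodes a receptor for long-chain fatty acids. FFAR4 had 2.24, 0 and 0 scaled reads at 3 hr and 37.8, 3.88 and 7.35 at 0 hr in S80A cells. For FFAR4, wild-type cells gave 0, 1.04 and 0 at 3 hr and 56.3, 20.9 and 16.1 at 0 hr. FFAR4 was all but absent at 3 hr, and replicate 1 was the highest library of both genotypes at 0 hr. In summed reads it was 20.0-fold lower (5.25 to 169.6) at 3 hr in S80A cells and 83.9-fold lower (14.7 to 3342) in wild-type cells, and it was not called between the genotypes. FFAR2, for short-chain fatty acids, rose, at 1.25 in S80A cells and 1.80 in wild-type cells in the authors' deposited tables, and its values ran over 415 to 688 scaled reads in S80A cells at 3 hr, 153 to 313 in S80A cells at 0 hr, 241 to 529.9 in wild-type cells at 3 hr and 82.3 to 133 in wild-type cells at 0 hr. FFAR2 missed the threshold between the genotypes at 0 hr (log2 difference 1.08 ± 0.33 SE, adjusted p = 0.0585). CYSLTR1 and CYSLTR2 encode receptors for cysteinyl leukotrienes. CYSLTR1 ran over 284 to 471 scaled reads in S80A cells at 3 hr, 486 to 728 in S80A cells at 0 hr, 123 to 167 in wild-type cells at 3 hr and 389.7 to 474 in wild-type cells at 0 hr, and was higher in S80A cells at 3 hr alone (log2 difference 1.47 ± 0.26 SE, adjusted p = 0.00302). CYSLTR2 was low, at 0 to 1.15 scaled reads in S80A cells at 3 hr, 5.98 to 11.5 in S80A cells at 0 hr, 0 to 1.17 in wild-type cells at 3 hr and 0 to 1.73 in wild-type cells at 0 hr, and was higher in S80A cells at 0 hr (log2 difference 2.38 ± 0.43 SE, adjusted p = 0.0137), a call lost without wild-type replicate 3 (adjusted p from 0.00457 to 0.0505 over all alternatives). CYSLTR2 was listed in the S80A table alone, through these higher 0 hr libraries, so that p-value is no independent support. CNR1, the Gi-coupled cannabinoid receptor, ran over 40.4 to 152 scaled reads in S80A cells at 3 hr, 98.6 to 572 in S80A cells at 0 hr, 38.8 to 66.4 in wild-type cells at 3 hr and 104 to 150 in wild-type cells at 0 hr, with replicate 1 the lowest S80A library at each time, and was not called. These genes were listed by the authors' deposited tables at -1.64 in wild-type cells for CYSLTR1, -2.85 in S80A cells for CYSLTR2, -1.65 in S80A cells for CNR1 and -2.94 in S80A cells and -4.07 in wild-type cells for FFAR4.

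Of the peptide and complement receptors, C5AR2 and EDNRA were far higher in S80A cells. C5AR2 encodes the receptor for complement C5a that signals through arrestin and not through G proteins (chr19:47332147-47347327, plus strand). C5AR2 had 1266, 2916 and 3314 scaled reads at 3 hr and 1397, 2074 and 1796 at 0 hr in S80A cells. For C5AR2, wild-type cells gave 121, 90.3 and 115 at 3 hr and 314, 396 and 384 at 0 hr. The S80A libraries were all above the wild-type libraries at both times. C5AR2 was higher in S80A cells at 3 hr (log2 difference 4.41 ± 0.37 SE, adjusted p = 0.000267) and at 0 hr (log2 difference 2.25 ± 0.18 SE, adjusted p = 0.00278), and the ratio of means was 23.0 at 3 hr and 4.82 at 0 hr. It fell with LPS in the wild-type table alone, at -1.69 by the authors' deposited table, and in S80A cells the 3 hr and 0 hr libraries overlapped. EDNRA encodes the receptor for the vasoconstrictor peptide endothelin-1. EDNRA had 13.5, 109 and 102 scaled reads at 3 hr and 87.6, 449.9 and 521 at 0 hr in S80A cells. For EDNRA, wild-type cells gave 5.87, 2.08 and 4.28 at 3 hr and 8.66, 7.24 and 8.07 at 0 hr. S80A replicate 1 was the lowest S80A library at either time and still above every wild-type library. EDNRA was higher in S80A cells at 3 hr (log2 difference 3.51 ± 0.79 SE, adjusted p = 0.00837) and at 0 hr (log2 difference 4.94 ± 0.72 SE, adjusted p = 0.00761). The authors' deposited table lists EDNRA in S80A cells alone, at -2.03. That listing came from S80A libraries that both comparisons use again, so the p-values of EDNRA are no independent support. OPRL1, the receptor for nociceptin, fell, at -1.61 in S80A cells and -1.78 in wild-type cells in the authors' deposited tables, and ran over 22.8 to 67.3 scaled reads in S80A cells at 3 hr, 64.0 to 253 in S80A cells at 0 hr, 49.2 to 62.3 in wild-type cells at 3 hr and 136 to 275 in wild-type cells at 0 hr, with no call between the genotypes.

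**Figure D3:**
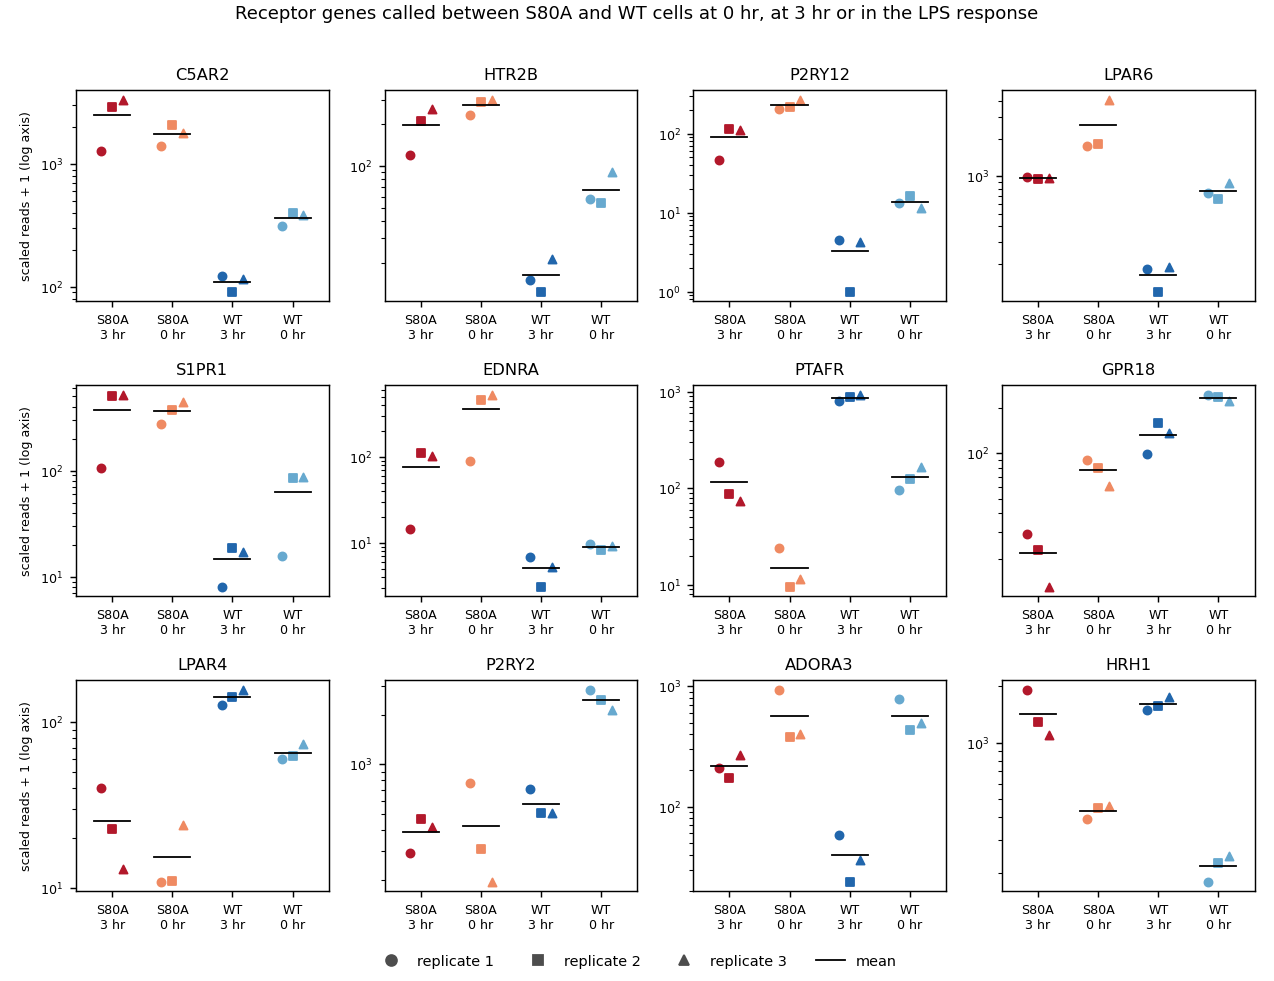
Scaled reads plus 1 (log axis) of genes named in the text in each library, by group from left to right S80A at 3 hr, S80A at 0 hr, wild type at 3 hr and wild type at 0 hr. Marker shape gives the replicate number and the bar the mean. P2RY12, C5AR2, EDNRA, S1PR1 and HTR2B lie higher in S80A than in wild-type libraries at both times, PTAFR and LPAR4 lie lower, and ADORA3 separates the genotypes at 3 hr alone.

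The amine receptors include both histamine receptors of macrophages, serotonin receptors and adrenergic receptors. HTR2B encodes the Gq-coupled serotonin receptor that human macrophages express. HTR2B had 119, 209 and 254 scaled reads at 3 hr and 233, 285 and 297 at 0 hr in S80A cells. For HTR2B, wild-type cells gave 14.1, 11.4 and 20.3 at 3 hr and 56.3, 53.1 and 88.7 at 0 hr. The S80A libraries were above all wild-type libraries at both times. HTR2B was higher in S80A cells at 3 hr (log2 difference 3.55 ± 0.36 SE, adjusted p = 0.000463) and at 0 hr (log2 difference 2.05 ± 0.25 SE, adjusted p = 0.00498), and was listed in the wild-type table alone, at -1.99 by the authors' deposited table. HRH1 encodes the Gq-coupled histamine receptor that classic antihistamines block. HRH1 had 1913, 1286 and 1091 scaled reads at 3 hr and 389, 445 and 453 at 0 hr in S80A cells. For HRH1, wild-type cells gave 1489, 1568 and 1747 at 3 hr and 178, 226 and 245 at 0 hr. At 0 hr the S80A libraries were all higher, and at 3 hr the genotypes overlapped. HRH1 was higher in S80A cells at 0 hr (log2 difference 0.99 ± 0.16 SE, adjusted p = 0.00935) and was not called at 3 hr (log2 difference -0.20 ± 0.23 SE, adjusted p = 0.506), and it rose with LPS, at 1.71 in S80A cells and 2.85 in wild-type cells in the authors' deposited tables. HRH2 encodes the Gs-coupled histamine receptor. HRH2 had 195, 124 and 68.3 scaled reads at 3 hr and 230.1, 167 and 106 at 0 hr in S80A cells. For HRH2, wild-type cells gave 175, 245 and 299 at 3 hr and 469, 674 and 561 at 0 hr. S80A libraries were below all wild-type libraries at 0 hr, and the genotypes overlapped at 3 hr. HRH2 was lower in S80A cells at 0 hr (log2 difference -1.81 ± 0.31 SE, adjusted p = 0.0121) and missed the threshold at 3 hr (log2 difference -0.98 ± 0.40 SE, adjusted p = 0.0753). By the authors' deposited table HRH2 was listed in wild-type cells alone, at -1.20. Before LPS, then, HRH1 was higher and HRH2 lower in S80A cells. HRH1 was in both tables, while HRH2 was listed through wild-type libraries that the 0 hr comparison uses again.

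ADRBK2, the receptor kinase GRK3, was lower in S80A cells. ADRBK2 had 469, 273 and 267 scaled reads at 3 hr and 161, 91.5 and 113 at 0 hr in S80A cells. For ADRBK2, wild-type cells gave 701, 727 and 745 at 3 hr and 448, 410.2 and 458 at 0 hr. All S80A libraries were below all wild-type libraries of the same time. The gene was called lower at 3 hr (log2 difference -1.16 ± 0.25 SE, adjusted p = 0.00751) and at 0 hr (log2 difference -1.87 ± 0.23 SE, adjusted p = 0.00507), and the authors' deposited table lists it in S80A cells alone, at 1.44. The adrenergic receptor ADRB1 is Gs-coupled and ADRA1B is Gq-coupled. ADRB1 ran over 576 to 722 scaled reads in S80A cells at 3 hr, 420.4 to 461 in S80A cells at 0 hr, 635 to 680 in wild-type cells at 3 hr and 270.2 to 356 in wild-type cells at 0 hr. It was called higher in S80A cells at 0 hr (log2 difference 0.54 ± 0.13 SE, adjusted p = 0.0316), and the call was lost with TMM scaling, with the replicate block and with edgeR. ADRB1 also lost its call without any S80A replicate or wild-type replicate 1 or 3, and its adjusted p ran from 0.0241 to 0.239 over all alternatives. ADRA1B rose to 84.1, 35.7 and 42.0 scaled reads in S80A cells at 3 hr, against 0, 2.33 and 2.10 at 0 hr. Wild-type ADRA1B values were 47.0, 49.8 and 50.3 at 3 hr and 0.866, 0.804 and 0.807 at 0 hr, and the genotypes were not called apart. HTR1B, a Gi-coupled serotonin receptor, fell and ran over 4.80 to 10.1 scaled reads in S80A cells at 3 hr, 30.2 to 45.8 in S80A cells at 0 hr, 4.15 to 6.42 in wild-type cells at 3 hr and 10.5 to 26.8 in wild-type cells at 0 hr, with no call between the genotypes. In the authors' deposited tables the log2 changes were 1.08 in wild-type cells for ADRB1, 4.49 in S80A cells and 4.87 in wild-type cells for ADRA1B and -2.08 in S80A cells and -1.71 in wild-type cells for HTR1B.

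The receptors named GPR with a number include proton and lipid sensors and orphans, which have no agreed ligand. GPR84 encodes a Gi-coupled receptor for medium-chain fatty acids found on activated macrophages. GPR84 had 1732, 1062 and 982 scaled reads at 3 hr and 492, 547 and 478 at 0 hr in S80A cells. For GPR84, wild-type cells gave 857, 1048 and 1177 at 3 hr and 242, 154 and 156 at 0 hr. The genotypes separated at 0 hr and overlapped at 3 hr. GPR84 was higher in S80A cells at 0 hr (log2 difference 1.48 ± 0.21 SE, adjusted p = 0.00690) and not called at 3 hr (log2 difference 0.26 ± 0.26 SE, adjusted p = 0.440), and it rose with LPS, at 1.29 in S80A cells and 2.43 in wild-type cells in the authors' deposited tables. GPR65 encodes a Gs-coupled proton sensor. GPR65 had 86.3, 62.1 and 52.8 scaled reads at 3 hr and 450.2, 341 and 546 at 0 hr in S80A cells. For GPR65, wild-type cells gave 32.9, 32.2 and 52.5 at 3 hr and 503, 335 and 413 at 0 hr. It fell in every library of both genotypes, at -2.67 in S80A cells and -3.32 in wild-type cells in the authors' deposited tables. S80A libraries were above all wild-type libraries at 3 hr, the nearest by under 1 scaled read, and overlapped them at 0 hr, and neither difference passed (at 3 hr log2 difference 0.77 ± 0.31 SE, adjusted p = 0.0766). GPR132, a receptor for lysolipids and lactate, rose, at 2.88 in S80A cells and 3.52 in wild-type cells in the authors' deposited tables, and ran over 2654 to 7721 scaled reads in S80A cells at 3 hr, 431 to 773 in S80A cells at 0 hr, 5484 to 6275 in wild-type cells at 3 hr and 403 to 526 in wild-type cells at 0 hr. GPR132 was not called between the genotypes.

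GPR18, an orphan of lymphoid and myeloid cells, was lower in S80A cells. GPR18 had 28.0, 21.9 and 12.0 scaled reads at 3 hr and 89.6, 78.3 and 59.8 at 0 hr in S80A cells. For GPR18, wild-type cells gave 98.7, 158 and 136 at 3 hr and 243, 235 and 223 at 0 hr. The S80A libraries were below all wild-type libraries at both times, and GPR18 was called at 3 hr (log2 difference -2.66 ± 0.36 SE, adjusted p = 0.00111) and at 0 hr (log2 difference -1.63 ± 0.19 SE, adjusted p = 0.00456). It was listed in the S80A table alone, at -1.80 by the authors' deposited table. GPR37 and GPR37L1 are a related pair known from the brain. GPR37 had 39.2, 21.9 and 15.6 scaled reads at 3 hr and 2.99, 0 and 0 at 0 hr in S80A cells. For GPR37, wild-type cells gave 41.1, 64.4 and 56.7 at 3 hr and 10.4, 10.5 and 11.3 at 0 hr. S80A libraries were below wild-type libraries at both times, and at 0 hr S80A reads were found in replicate 1 alone. GPR37 was called lower at 3 hr (log2 difference -1.13 ± 0.39 SE, adjusted p = 0.0432) and at 0 hr (log2 difference -2.88 ± 0.58 SE, adjusted p = 0.0175). The 3 hr call was lost with the replicate block, in a fit of all 12 libraries, and without S80A replicate 2 or 3 or any wild-type replicate, and the 0 hr call without S80A replicate 2 or any wild-type replicate. Over all alternatives the adjusted p ran from 0.00645 to 0.139 at 3 hr and from 0.000832 to 0.0652 at 0 hr. GPR37L1 went the other way, at 5.61 to 36.0 scaled reads in S80A cells at 3 hr, 0 to 2.10 in S80A cells at 0 hr, 0 to 4.15 in wild-type cells at 3 hr and 0 to 1.61 in wild-type cells at 0 hr. It was called higher at 3 hr (log2 difference 2.64 ± 0.83 SE, adjusted p = 0.0317), and lost the call without S80A replicate 2 or 3 or wild-type replicate 1 or 3 (adjusted p from 0.00444 to 0.0992 over all alternatives). GPR37L1 was listed in the S80A table alone, through these 3 hr libraries, so its p-value is no independent support. In the authors' deposited tables GPR37 was listed at 3.77 in S80A cells and 2.22 in wild-type cells and GPR37L1 at 3.47 in S80A cells.

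Further low-count genes separated the genotypes after LPS. GPR31 encodes a receptor for a hydroxylated fatty acid. GPR31 had 5.61, 1.15 and 1.20 scaled reads at 3 hr and 0, 0 and 0 at 0 hr in S80A cells. For GPR31, wild-type cells gave 32.9, 19.7 and 33.2 at 3 hr and 0, 0 and 0 at 0 hr. All wild-type libraries at 3 hr were above all S80A libraries, and no read was found at 0 hr. GPR31 was lower in S80A cells at 3 hr (log2 difference -3.20 ± 0.53 SE, adjusted p = 0.00230). GPR31 was listed through its high wild-type libraries at 3 hr, which this comparison uses again, so the p-value is no independent support. Against the floor of 3 reads at 0 hr it was at least 2.92-fold higher at 3 hr in S80A cells and at least 34.4-fold higher in wild-type cells, and the authors' deposited table lists it in wild-type cells alone, at 5.29. GPR98 had 12.3, 3.45 and 10.8 scaled reads in S80A cells at 3 hr, and 0 in all 3 wild-type libraries at 3 hr. It was higher in S80A cells at 3 hr (log2 difference 3.15 ± 0.56 SE, adjusted p = 0.00310) and was listed in the S80A table alone, at 2.98 by the authors' deposited table. That listing came from the same S80A libraries at 3 hr, so this p-value too is no independent support. GPR98 overlaps the non-coding RNA LUCAT1 on the other strand, which had 527 ± 24.3 scaled reads in S80A cells at 3 hr, 69.7 ± 20.0 in S80A cells at 0 hr, 148 ± 11.0 in wild-type cells at 3 hr and 17.8 ± 2.77 in wild-type cells at 0 hr (SD, n = 3 each). Whether LUCAT1 reads were counted for GPR98 was not tested. GPR17 overlaps LIMS2, another listed gene, in the same way. GPR17 ran over 8.05 to 22.4 scaled reads in S80A cells at 3 hr, 0 to 0.776 in S80A cells at 0 hr, 3.21 to 14.1 in wild-type cells at 3 hr and 0 in all 3 libraries of wild-type cells at 0 hr, and was not called between the genotypes. LIMS2 had 295 ± 24.5 scaled reads in S80A cells at 3 hr, 29.2 ± 13.1 in S80A cells at 0 hr, 149 ± 18.8 in wild-type cells at 3 hr and 7.49 ± 5.80 in wild-type cells at 0 hr (SD, n = 3 each).

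GPR137B and GPR155, which encode proteins of the lysosomal membrane, were higher in S80A cells. GPR137B ran over 1542 to 1708 scaled reads in S80A cells at 3 hr, 712 to 1096 in S80A cells at 0 hr, 1087 to 1284 in wild-type cells at 3 hr and 351 to 441 in wild-type cells at 0 hr, and was called at 0 hr (log2 difference 1.19 ± 0.19 SE, adjusted p = 0.00940) and not at 3 hr (log2 difference 0.45 ± 0.16 SE, adjusted p = 0.0536). GPR155 ran over 68.3 to 108 scaled reads in S80A cells at 3 hr, 102 to 109.6 in S80A cells at 0 hr, 28.2 to 32.2 in wild-type cells at 3 hr and 66.1 to 71.9 in wild-type cells at 0 hr, and was called at 3 hr (log2 difference 1.39 ± 0.27 SE, adjusted p = 0.00470) and at 0 hr (log2 difference 0.60 ± 0.14 SE, adjusted p = 0.0293). The S80A and wild-type libraries of these genes did not overlap at either time. At 0 hr GPR155 lost its call with TMM scaling, with the block, with edgeR, in a fit of all 12 libraries, and without S80A replicate 2 or 3 or any wild-type replicate (adjusted p from 0.0121 to 0.208 over all alternatives). In the authors' deposited tables the log2 changes with LPS were 1.57 in wild-type cells for GPR137B and -1.18 in wild-type cells for GPR155. The orphans GPR157 and GPR25 and the ciliary receptor GPR161 rose and were not called between the genotypes. GPR157 ran over 170.2 to 472 scaled reads in S80A cells at 3 hr, 25.6 to 60.8 in S80A cells at 0 hr, 114 to 307 in wild-type cells at 3 hr and 31.2 to 35.4 in wild-type cells at 0 hr. For GPR161 the ranges were 99.5 to 135 scaled reads in S80A cells at 3 hr, 37.8 to 67.5 in S80A cells at 0 hr, 55.2 to 101 in wild-type cells at 3 hr and 24.2 to 39.5 in wild-type cells at 0 hr. GPR25 was low, at 6.73 to 19.2 scaled reads in S80A cells at 3 hr, 0 to 5.43 in S80A cells at 0 hr, 4.28 to 11.7 in wild-type cells at 3 hr and 0 to 0.807 in wild-type cells at 0 hr. The authors' deposited tables list GPR157 at 2.73 in S80A cells and 2.42 in wild-type cells, GPR161 at 1.03 in S80A cells and 1.32 in wild-type cells, GPR17 at 3.60 in S80A cells and 3.65 in wild-type cells and GPR25 at 2.76 in wild-type cells.

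**Figure D4:**
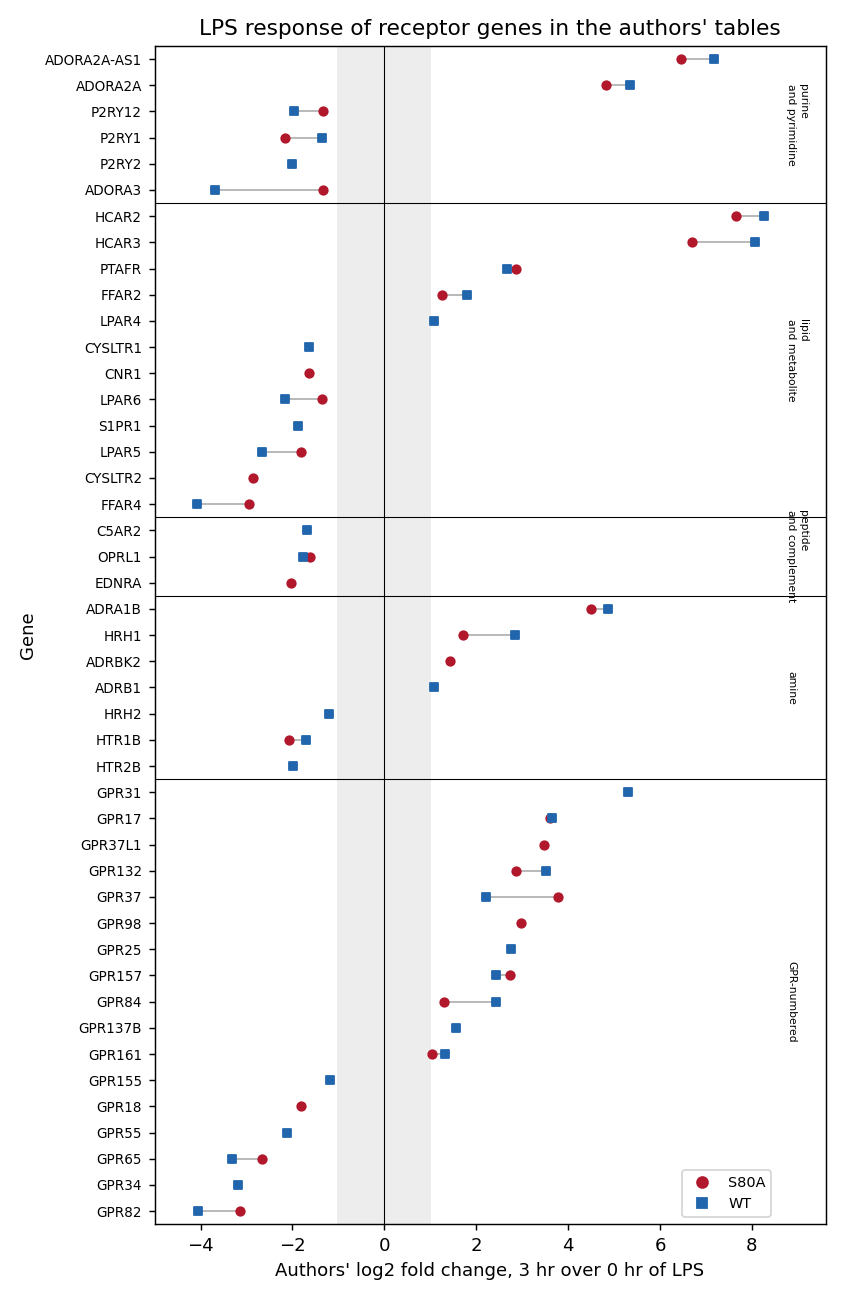
The authors' log2 change with LPS (3 hr over 0 hr, horizontal axis) of 45 of the 47 genes in S80A and wild-type cells (marker colour and shape), by ligand class, with a missing marker where a gene is not in that table and a grey band over the changes within 1 that the tables leave out. HCAR2 and HCAR3 lie farthest right and FFAR4 and GPR82 farthest left, and none of them has markers on opposite sides of 0.

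GPR82, GPR34, LPAR5 and GPR55 are genes in which S80A replicate 1 looked like wild type at 0 hr. GPR82 is an orphan, GPR34 a receptor for lysophosphatidylserine and GPR55 for lysophosphatidylinositol. GPR82 had 10.1, 0 and 0 scaled reads at 3 hr and 140.4, 29.5 and 44.1 at 0 hr in S80A cells. For GPR82, wild-type cells gave 4.70, 5.19 and 1.07 at 3 hr and 165, 121 and 195 at 0 hr. At 0 hr S80A replicate 1 lay inside the wild-type range and the other S80A libraries lay below it. GPR34 had 34.8, 3.45 and 5.99 scaled reads at 3 hr and 129, 18.6 and 16.8 at 0 hr in S80A cells. For GPR34, wild-type cells gave 11.7, 4.15 and 11.8 at 3 hr and 122, 103 and 165 at 0 hr. The same held for GPR34, and at 3 hr S80A replicate 1 was its highest library. LPAR5 had 52.7, 17.3 and 13.2 scaled reads at 3 hr and 225, 50.4 and 55.6 at 0 hr in S80A cells. For LPAR5, wild-type cells gave 37.6, 24.9 and 27.8 at 3 hr and 261, 204 and 209.7 at 0 hr. LPAR5 again had S80A replicate 1 within the wild-type range at 0 hr. GPR55 had 13.5, 19.6 and 25.2 scaled reads at 3 hr and 70.7, 27.9 and 18.9 at 0 hr in S80A cells. For GPR55, wild-type cells gave 22.3, 18.7 and 7.49 at 3 hr and 76.2, 77.2 and 80.7 at 0 hr. GPR55 had S80A replicate 1 just under the wild-type libraries. None of the 4 was called at either time, and without S80A replicate 1 at 0 hr all 4 were called lower there. They were named after their values were seen, as the genes that gained a call as lower in that fit. In the authors' deposited tables they fell with LPS, GPR82 at -3.14 in S80A cells and -4.06 in wild-type cells, GPR34 at -3.19 in wild-type cells and GPR55 at -2.12 in wild-type cells.

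**Figure D5:**
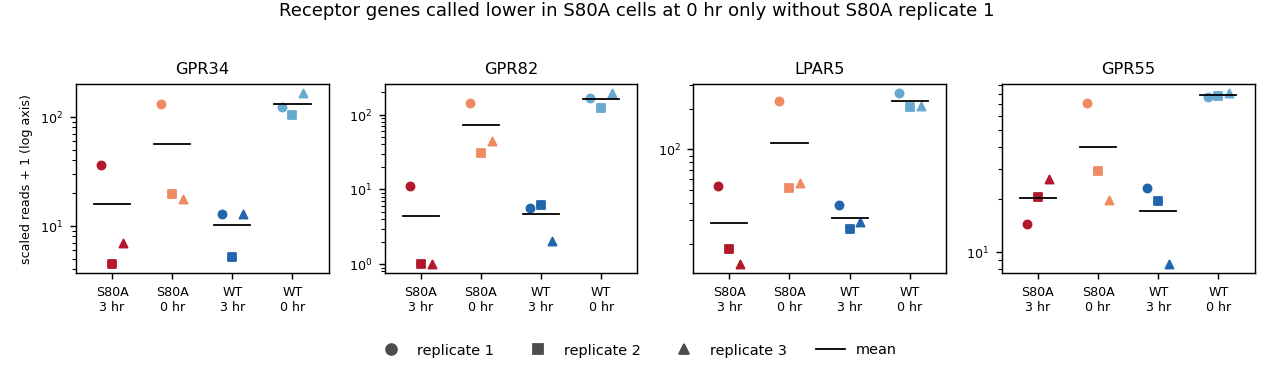
Scaled reads plus 1 (log axis) of GPR34, GPR82, LPAR5 and GPR55 in each library, by group, with marker shape giving the replicate and the bar the mean. At 0 hr S80A replicate 1 (circle) lies beside the wild-type libraries, and S80A replicates 2 and 3 lie below them.

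The difference of the LPS response between the genotypes was tested for 25 of the 47 genes, those in both tables. Genes in 1 table only had been selected by a call in one genotype and not in the other, and were left out of this test for that reason. Of the 25, 2 passed, beside 2.82% of all genes in the positive direction, 2.18% in the negative direction and 4.99% in either, and 5 had an unadjusted p under 0.05. The fall of ADORA3 with LPS was smaller in S80A cells (difference of log2 changes 2.61 ± 0.57 SE, adjusted p = 0.0199). The rise of HRH1 was smaller in S80A cells (difference -1.19 ± 0.31 SE, adjusted p = 0.0477). GPR84 missed the threshold (difference -1.22 ± 0.36 SE, adjusted p = 0.0720). Within each genotype same-numbered libraries of 3 hr and 0 hr deviated together, and with a replicate block within each genotype the same 2 genes were called, with adjusted p = 0.00699 for ADORA3 and 0.0456 for HRH1. Over all shared genes this block moved the count called to 143, against 78 without it. Neither call held in every set of libraries. The count was 0 without S80A replicate 2 at 0 hr, wild-type replicate 2 or 3 at 3 hr, or wild-type replicate 1 at 0 hr. It was 1, ADORA3, without S80A replicate 2 or 3 at 3 hr, wild-type replicate 1 at 3 hr, or wild-type replicate 2 or 3 at 0 hr. Without S80A replicate 1 at 3 hr it was 4, and without that replicate at both times 5. HRH1 was also not called without S80A replicate 3 at 0 hr, where LPAR6 was. Over all alternatives the adjusted p ran from 0.00144 to 0.0588 for ADORA3 and from 0.00398 to 0.134 for HRH1.

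The other 22 genes stood in 1 table only, and for them the difference of the LPS response is given as a value with no test. It ran from -3.20 ± 0.66 SE for GPR31 to 3.10 ± 0.73 SE for GPR98. C5AR2 had 2.15 ± 0.44 SE, P2RY2 2.21 ± 0.55 SE and HTR2B 1.50 ± 0.46 SE, all being falls in wild-type cells that were smaller or missing in S80A cells. Of the 22, 14 were called between the genotypes at 0 hr and 12 at 3 hr, beside 33.3% of all genes in 1 table at 0 hr and 52.5% at 3 hr. Of the 25 shared genes 8 were called at 0 hr and 6 at 3 hr, beside 28.4% and 42.7% of all genes in both tables. No test was made between these shares.

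The genes around the receptors in the same pathways were read from 5 lists of 134 genes, of which 33 were in the tables. Over all listed genes the shares called were 30.1% higher and 17.7% lower in S80A cells at 3 hr, and 20.3% higher and 10.7% lower at 0 hr. No list was tested against these shares, and each had 4 to 10 listed genes. Of the genes called below, RGS18, ADRBK2, ARRDC2, GNAI1, GNA14, CREB1, CREB5, CREM, PRKACB, AKAP12, EDN1, HSD3B7 and ENPP2 were listed in 1 table only. They entered through a call in 1 genotype, from libraries that these comparisons use again. Their p-values are therefore not independent of that selection. Of all genes in 1 table, 52.5% were called at 3 hr and 33.3% at 0 hr. Of 20 regulators of G protein signalling 6 were listed. RGS16, which acts on Gi and Gq, had 28011 ± 9641 scaled reads in S80A cells at 3 hr, 1579.9 ± 566 in S80A cells at 0 hr, 5181 ± 1497 in wild-type cells at 3 hr and 163 ± 43.0 in wild-type cells at 0 hr (SD, n = 3 each). It was higher in S80A cells at 3 hr (log2 difference 2.40 ± 0.32 SE, adjusted p = 0.00102) and at 0 hr (log2 difference 3.23 ± 0.35 SE, adjusted p = 0.00423). RGS4, also for Gi and Gq, had 37.7 ± 10.2 scaled reads in S80A cells at 3 hr, 467 ± 119.5 in S80A cells at 0 hr, 1.05 ± 1.04 in wild-type cells at 3 hr and 69.5 ± 44.0 in wild-type cells at 0 hr (SD, n = 3 each), and was higher at 3 hr (log2 difference 4.35 ± 0.50 SE, adjusted p = 0.000644) and at 0 hr (log2 difference 2.92 ± 0.55 SE, adjusted p = 0.0149), and the 0 hr call was lost without S80A replicate 2 or wild-type replicate 2 at 0 hr (adjusted p from 1.5e-08 to 0.0603 over all alternatives). RGS20 was low and not called. With LPS the authors' deposited tables list RGS16 at 4.01 in S80A cells and 4.82 in wild-type cells, RGS4 at -3.45 in S80A cells and -4.67 in wild-type cells and RGS20 at 2.44 in S80A cells and 2.26 in wild-type cells. At each time 2 of the 6, RGS16 and RGS4, were higher and 1, RGS18, was lower in S80A cells, beside 47.9% of all genes called in either direction at 3 hr and 31% at 0 hr (RGS18 log2 difference -3.03 ± 0.67 SE, adjusted p = 0.00773 at 3 hr and log2 difference -4.14 ± 0.62 SE, adjusted p = 0.00846 at 0 hr).

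Of 14 receptor kinases and arrestins 5 were listed, and at each time 1 was higher, ARRDC3 at 3 hr and ARRDC2 at 0 hr, and 1, ADRBK2, lower in S80A cells. ARRDC3, an arrestin-domain protein that directs receptors to degradation, had 7358 ± 1716 scaled reads in S80A cells at 3 hr, 529 ± 270.3 in S80A cells at 0 hr, 1047 ± 249 in wild-type cells at 3 hr and 181 ± 104 in wild-type cells at 0 hr (SD, n = 3 each). It was higher in S80A cells at 3 hr (log2 difference 2.81 ± 0.25 SE, adjusted p = 0.000293). The 0 hr call of ARRDC2 (log2 difference 0.69 ± 0.14 SE, adjusted p = 0.0175) was lost with edgeR and without S80A replicate 2 or wild-type replicate 1 or 3 (adjusted p from 0.00174 to 0.0728 over all alternatives). The kinase GRK6 was not called between the genotypes. With LPS the authors' deposited tables list ARRDC3 at 3.64 in S80A cells and 2.41 in wild-type cells and GRK6 at -1.19 in S80A cells. Of 28 G protein subunits 4 were listed, and 0 were higher and 2 lower at 3 hr, and 1 higher and 1 lower at 0 hr, beside the same shares of all genes. The gamma subunit gene GNG4 had 82.6 ± 63.4 scaled reads in S80A cells at 3 hr, 2.86 ± 2.71 in S80A cells at 0 hr, 209.6 ± 18.3 in wild-type cells at 3 hr and 48.3 ± 6.53 in wild-type cells at 0 hr (SD, n = 3 each). It was lower in S80A cells at 3 hr (log2 difference -1.65 ± 0.55 SE, adjusted p = 0.0402) and at 0 hr (log2 difference -3.88 ± 0.50 SE, adjusted p = 0.00554). The 3 hr call was lost without limma's trend and without S80A replicate 2 or 3 or any wild-type replicate, and without S80A replicate 3 the log2 difference was -1.01 (adjusted p from 0.00271 to 0.104 over all alternatives). GNAI1, the Gi alpha subunit, was higher at 0 hr (log2 difference 1.47 ± 0.27 SE, adjusted p = 0.0136), a call lost without S80A replicate 2 or wild-type replicate 2 (adjusted p from 6.2e-06 to 0.0546). GNA14, a Gq-family alpha subunit, was lower at 3 hr (log2 difference -2.04 ± 0.29 SE, adjusted p = 0.00130). With LPS the authors' deposited tables list GNG4 at 4.20 in S80A cells and 1.99 in wild-type cells, GNAI1 at -1.59 in S80A cells and GNA14 at -1.45 in S80A cells.

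Of 32 cyclic AMP enzymes and effectors 8 were listed, 4 of them higher in S80A cells at 3 hr (CREB1, CREB5, CREM and PRKACB) and 3 at 0 hr (AKAP12, CREB5 and PDE4B), with 0 lower at either time. Over all listed genes 30.1% were higher and 17.7% lower at 3 hr, and 20.3% and 10.7% at 0 hr. PDE4B, the phosphodiesterase that degrades cyclic AMP in activated myeloid cells, had 4371 ± 2849 scaled reads in S80A cells at 3 hr, 119 ± 31.3 in S80A cells at 0 hr, 3106 ± 518 in wild-type cells at 3 hr and 40.3 ± 17.3 in wild-type cells at 0 hr (SD, n = 3 each). It was called higher in S80A cells at 0 hr (log2 difference 1.60 ± 0.40 SE, adjusted p = 0.0320), and lost the call with TMM scaling and without any S80A replicate or wild-type replicate 2 or 3 (adjusted p from 0.000506 to 0.0918 over all alternatives). PDE7B was not called between the genotypes, and the 3 hr call of CREB1 was lost with edgeR and without wild-type replicate 3 (adjusted p from 0.000942 to 0.0600 over all alternatives). The transcription factor gene CREB5 was higher in S80A cells at 3 hr (log2 difference 1.54 ± 0.33 SE, adjusted p = 0.00669) and at 0 hr (log2 difference 2.72 ± 0.75 SE, adjusted p = 0.0439). Its 0 hr call was lost with a pseudocount of 0.5, with TMM scaling, with the block, and without any S80A replicate or wild-type replicate 2 or 3 (adjusted p from 0.00318 to 0.118 over all alternatives). The authors' deposited tables list PDE4B at 4.96 in S80A cells and 5.95 in wild-type cells, PDE7B at -2.00 in S80A cells and -2.10 in wild-type cells and CREB5 at 1.96 in wild-type cells.

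Of 40 genes that make or remove receptor ligands 10 were listed, 7 higher and 2 lower in S80A cells at 3 hr, beside 30.1% and 17.7% of all genes, and 3 higher and 1 lower at 0 hr, beside 20.3% and 10.7%. ECE1, the protease that makes mature endothelin, had 2207 ± 809.8 scaled reads in S80A cells at 3 hr, 53.8 ± 28.5 in S80A cells at 0 hr, 576 ± 93.7 in wild-type cells at 3 hr and 78.4 ± 24.1 in wild-type cells at 0 hr (SD, n = 3 each). It was higher in S80A cells at 3 hr (log2 difference 1.87 ± 0.31 SE, adjusted p = 0.00230), and its rise with LPS was larger there (difference of log2 changes 2.55 ± 0.62 SE, adjusted p = 0.0348). The call of that difference was lost without S80A replicate 2 or 3 or any wild-type replicate at 3 hr, and without wild-type replicate 1 or 2 at 0 hr (adjusted p from 0.00143 to 0.0905 over all alternatives). EDN1, which encodes endothelin-1 and was named after its values were seen because its receptor EDNRA is described above, had 162 ± 96.3 scaled reads in S80A cells at 3 hr, 7.10 ± 5.73 in S80A cells at 0 hr, 16.6 ± 3.20 in wild-type cells at 3 hr and 5.18 ± 1.54 in wild-type cells at 0 hr (SD, n = 3 each). EDN1 was higher in S80A cells at 3 hr (log2 difference 2.98 ± 0.54 SE, adjusted p = 0.00327). EDN1 was listed in the S80A table alone, through its S80A libraries at 3 hr, so that p-value is no independent support. ENTPD2, an enzyme that removes phosphate from extracellular ATP, had 54.1 ± 15.6 scaled reads in S80A cells at 3 hr, 0.517 ± 0.896 in S80A cells at 0 hr, 13.1 ± 9.39 in wild-type cells at 3 hr and 0 in all 3 libraries of wild-type cells at 0 hr (SD, n = 3 each), and was higher in S80A cells at 3 hr (log2 difference 2.14 ± 0.52 SE, adjusted p = 0.0117). SGPP2, a phosphatase of sphingosine 1-phosphate, had 498 ± 245 scaled reads in S80A cells at 3 hr, 2.64 ± 1.66 in S80A cells at 0 hr, 399 ± 44.2 in wild-type cells at 3 hr and 9.81 ± 5.51 in wild-type cells at 0 hr (SD, n = 3 each), with no call between the genotypes. The other genes higher at 3 hr were CYP7B1 and HSD3B7, of oxysterol metabolism, SPHK1, which makes sphingosine 1-phosphate, and PANX1, a channel that releases ATP, and those lower were ADA, which removes adenosine, and ENPP2, which makes lysophosphatidic acid. At 0 hr CYP7B1, HSD3B7 and SPHK1 were higher and ENPP2 lower. PANX1 lost its 3 hr call with TMM scaling, with the replicate block, without limma's trend, with edgeR, and without S80A replicate 1 or 2 or any wild-type replicate (adjusted p from 0.0237 to 0.145 over all alternatives). Calls at 0 hr were lost for HSD3B7 without S80A replicate 2 or wild-type replicate 1 or 3, and for SPHK1 without S80A replicate 2 or 3 or wild-type replicate 1 or 3. ENPP2 lost its 0 hr call with DESeq2 and without replicate 2 of either genotype. Over all alternatives these adjusted p ran from 2.9e-05 to 0.0642 for HSD3B7, 4.7e-06 to 0.0708 for SPHK1 and 0.0134 to 0.0798 for ENPP2. The authors' deposited tables list ECE1 at 5.12 in S80A cells and 2.75 in wild-type cells, EDN1 at 4.15 in S80A cells, ENTPD2 at 5.15 in S80A cells and 3.99 in wild-type cells and SGPP2 at 6.90 in S80A cells and 5.07 in wild-type cells.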

How the data were processed

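RNA from 12 libraries was analysed. Per the submitters' processing notes, FastQC, HISAT, StringTie, Cuffdiff, HTSeq and DESeq2 were used with GRCh38, with no version, role or strand setting given there. The authors deposited 2 tables, S80A (2508 genes) and wild type (2335 genes), of the genes they called with LPS. The signal the authors deposited for each library is reads on a gene divided by 1 size factor per library (0.834 to 1.29), as found from the values, of which 100% came out as whole reads within 0.01. The tables also hold the authors' log2 fold change and adjusted p-value. The 1562 genes in both tables have identical values in both.

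S80A was compared with wild type at 0 hr and at 3 hr (6 libraries and 3281 genes each), and the LPS response between genotypes in 12 libraries over the 1562 shared genes, with limma 3.58.1 (eBayes with trend) on log2(scaled reads + 1), Benjamini-Hochberg adjusted, threshold 0.05. Differences of low genes are understated on this scale. Counting intervals are 95% exact intervals and cover counting error only, as does the floor of 3 reads. Selection of the tables on LPS means that all percentages refer to listed genes. The scripts were tested on simulated data. Alternatives were pseudocounts 0.5 and 5, a mean of at least 10 scaled reads, TMM scaling, no trend, a replicate block, edgeR 4.0.16 and DESeq2 1.42.0 on the recovered whole reads, wider fits, and leaving out libraries. On the recovered reads edgeR called 1068 genes at 0 hr, 1610 at 3 hr and 64 for the LPS response.

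Replicate numbers come from the labels. At 0 hr same-numbered S80A and wild-type libraries deviated together in every pair (correlations 0.188 to 0.259), so the numbers pair them. At 3 hr they did not in every pair (0.064 to 0.196). Within a genotype, same-numbered 3 hr and 0 hr libraries deviated together in every pair (0.196 to 0.299 in S80A cells, 0.153 to 0.343 in wild-type cells), so the LPS difference was also fitted with a replicate block within each genotype, an alternative chosen after seeing the data.

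Values in every library are given for the 4 largest rises and falls in each table among genes averaging at least 10 scaled reads, for up to 6 genes per direction with the smallest p in each test, and for HCAR2 and HCAR3, while other genes are given by ranges. From each pathway list the 3 genes with the largest deposited change are named, beside any said to be named after their values were seen. Of the 47 genes, 2 are counted in the totals and are not reported here one by one or drawn. The members and lists were chosen with earlier results of these data known.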

Additional observations from a re-analysis of the deposited data

Results flagged for a closer look

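The LPS response of 2 receptor genes and 1 ligand-processing gene differed between S80A and wild-type cells by limma's test of the difference itself. For ADORA3 the difference of log2 changes, S80A minus wild type, was 2.61, the fall being smaller in S80A cells. For HRH1 it was -1.19, the rise being smaller in S80A cells. For ECE1 it was 2.55 (adjusted p = 0.0348), the rise being larger in S80A cells. The libraries whose removal ends each call are named in the results above.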

How the results depend on the processing

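Over all alternatives, 42 called values of the 47 genes gave 642 alternative values, of which 567 stayed past the threshold in the same direction, 75 missed it and 0 reversed, and 29 of the 42 held under every alternative. The members called ran from 14 to 27 at 0 hr with a library left out, 14 being without wild-type replicate 3, from 16 to 25 at 3 hr, and from 0 to 4 for the difference of the LPS response. Those fits called 519 to 1207 of all listed genes at 0 hr and 1109 to 1842 at 3 hr. The count of members for the LPS difference was 2. It was 1 with a pseudocount of 0.5 and 1 without limma's trend, where HRH1 missed the threshold. Without S80A replicate 1 at both times it was 5. With the replicate block, 3 hr kept a count of 18, with GPR37 lost and FFAR2 gained, and the LPS difference kept 2. At 3 hr the shared numbers are not shown to pair the genotypes. For the LPS difference they pair 3 hr with 0 hr libraries within each genotype, and a replicate block within each genotype, chosen after seeing the data, also kept 2. At 0 hr the block ended 4 calls of the 47 genes, among them ADRB1 and GPR155, added FFAR2 and changed no other. DESeq2 called 3 genes for the LPS difference, GPR84 being added, and 23 at 0 hr. A fit of the LPS difference over all listed genes also called 3. Over all genes in both tables the LPS difference was called for 78, against 153 with DESeq2, 130 with the block, 143 with the block within each genotype and 218 without S80A replicate 1 at both times. Leaving out 1 library gave 39 to 136. The causes were not tested. Genes outside the tables, and a change under the authors' limit, could not be seen, and 6 of the 47 genes averaged under 10 scaled reads.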
